A study of Rattus norvegicus with 8 samples.

Results

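The Egr and AP-1 immediate early genes were followed in oligodendrocyte precursor cells (OPCs) of the rat. These glial cells divide in culture and can mature into oligodendrocytes, the cells that make myelin. The set holds 10 genes of the 32883 in the deposited table, taken by gene symbol: Egr1, Egr2, Egr3, Fos, Fosb, Fosl1, Jun, Junb, Ier2 and Nr4a1. All 10 symbols were found, each in a single row. The choice was made with male and female values of these same cultures in view, so the differences between the sexes are given for these genes as a description with no test.

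The 2 groups were cultures from male and from female newborn Sprague Dawley rats, with 4 cultures of each. In both groups mixed glia from the cerebral cortex of 1 to 2 day old animals were kept in DMEM with 20% serum. The cells that did not adhere were then grown for 4 to 5 days in Neurobasal medium with glutamine, antibiotics, 2% B27, 10 ng/ml PDGF and 10 ng/ml FGF. The growth factors were therefore present in every culture, and no unstimulated culture stands beside them. The labels do not say whether the cultures of 1 sex came from separate animals or litters, so each p-value reflects the variation among these libraries alone, some of which may be technical.

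Immediate early genes are switched on within minutes of a growth factor or other stimulus, without new protein synthesis, and their mRNAs are short-lived. Receptor signals reach them through ERK and other kinases, which act on the transcription factors SRF, the ETS-type ternary complex factors and CREB at their promoters. Many of their products are transcription factors themselves: EGR proteins are zinc finger factors that bind GC-rich sites, and FOS and JUN proteins pair as AP-1. In the oligodendrocyte lineage the growth factors PDGF and FGF hold precursors in division and act in part through this route.

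Promoter sequence was at hand for 7 of the 10 genes, as RefSeq windows of assembly GRCr8 that run from 250 bases before to 50 bases after a transcript start. Egr3, Fos and Jun had no window, so their promoters were not searched. They are shown for the pair of genes with the largest differences between the sexes (Egr1, Egr2), for a gene with a smaller one (Ier2) and for Nr4a1, whose level hardly differed. Capitals mark matches, on either strand, to the CArG box (the SRF site), TGACGTCA (the full CREB site), TGANTCA (an AP-1 site), GCGNGGGCG (an EGR site) or CCGGAA (an ETS core). The Egr1 window is chr18:26736828-26737127 on the plus strand, and the Ier2 window is chr19:40399123-40399422 on the plus strand. The Egr2 window is chr20:21054392-21054691 on the minus strand, and the Nr4a1 window is chr7:134259888-134260187 on the plus strand. The last 2 lie inside the spans RefSeq gives to these genes (chr20:21050149-21055201 and chr7:134247153-134268044), so they start from an inner transcript start.
Egr1: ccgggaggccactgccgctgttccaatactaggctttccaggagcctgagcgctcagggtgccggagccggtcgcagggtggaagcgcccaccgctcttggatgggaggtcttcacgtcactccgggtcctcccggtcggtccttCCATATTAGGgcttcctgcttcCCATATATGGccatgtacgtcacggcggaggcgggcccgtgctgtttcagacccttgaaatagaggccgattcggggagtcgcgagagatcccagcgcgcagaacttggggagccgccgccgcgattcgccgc
Egr2: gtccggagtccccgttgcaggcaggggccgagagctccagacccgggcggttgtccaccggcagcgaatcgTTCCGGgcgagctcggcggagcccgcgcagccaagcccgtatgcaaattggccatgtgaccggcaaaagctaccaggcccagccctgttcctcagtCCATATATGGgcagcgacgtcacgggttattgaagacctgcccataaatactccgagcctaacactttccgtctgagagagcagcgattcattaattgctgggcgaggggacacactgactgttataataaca
Ier2: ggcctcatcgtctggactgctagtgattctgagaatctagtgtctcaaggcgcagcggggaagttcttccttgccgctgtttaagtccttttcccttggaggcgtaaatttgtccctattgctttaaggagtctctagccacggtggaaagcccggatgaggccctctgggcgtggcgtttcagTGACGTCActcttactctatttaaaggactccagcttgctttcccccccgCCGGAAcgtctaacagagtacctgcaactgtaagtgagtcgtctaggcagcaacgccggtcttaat
Nr4a1: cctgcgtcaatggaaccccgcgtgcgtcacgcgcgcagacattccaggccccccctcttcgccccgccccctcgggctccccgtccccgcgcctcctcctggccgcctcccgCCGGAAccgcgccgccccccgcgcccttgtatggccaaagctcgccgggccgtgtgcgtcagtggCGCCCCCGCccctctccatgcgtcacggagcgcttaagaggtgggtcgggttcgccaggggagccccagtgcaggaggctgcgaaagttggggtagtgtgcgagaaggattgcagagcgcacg

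The Egr1 window holds CArG boxes that begin 105 and 83 bases before the start, CCATATTAGG and CCATATATGG. The Egr2 window holds the same CCATATATGG, also 83 bases before its start, and an ETS core 179 bases before it. Of the 7 windows only these held a CArG box, which 1.64% of all 33469 windows hold. Ier2 was the only 1 of the 7 with TGACGTCA (1.83% of all windows), 66 bases before its start, and it holds an ETS core 16 bases before the start. Nr4a1 was the only 1 with GCGNGGGCG (4.98% of all windows), on the reverse strand, and it also holds an ETS core, 138 bases before the start. CCGGAA stood in 3 of the 7 windows and in 14.95% of all, and TGANTCA in 0 of the 7 and in 7.33% of all. The windows of Fosb, Fosl1 and Junb matched none of the 5 motifs. TATAAA was searched as well, and stood in 2 of the 7 windows (Fosb and Junb) and in 14.22% of all. The Fosb window (chr1:88089135-88089434, minus strand) also lies inside the span of its gene (chr1:88082324-88089506). For Fosb, Egr2 and Nr4a1 the sequence before the outermost start was therefore not searched. No motif overlapped another in these windows. A match describes the letters, and the data hold no measurement of binding.

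Levels are the authors' FPKM, fragment counts scaled by transcript length and library size, which can be compared between genes. They hold no counts, so how deeply the libraries were sequenced is unknown. Steps among the lowest values put the depth relative to male 1 at 0.553 to 0.768 in the other male libraries and 0.303 to 0.981 in the female ones. Differences are on the log2(FPKM + 1) scale, male minus female, which understates the change of low genes. Their standard errors come from a limma-trend fit over the 11263 genes that averaged 1 FPKM or more. Of the 10 genes, 8 passed that filter, and Egr3 and Fosb did not. Egr2 passed through its male level. Markers of the labelled cell type were abundant: Pdgfra averaged 229 ± 10.4 FPKM in male and 303 ± 27.8 FPKM in female cultures (SD, n = 4 each), and Olig1, Olig2 and Sox10 averaged 193 FPKM or more in both. The libraries male 1 and female 3, the deepest, moved away from the means of their sexes together (r = 0.242 across 11263 genes, which are not independent replicates).

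Levels of some markers of other cell types differed between the sexes, and these values stand beside every result on the immediate early genes. Of the listed microglia and macrophage markers, 16 of 17 were in the table, and they summed to 47.2 to 64.8 FPKM in male and 180 to 226 FPKM in female cultures. Of the 14 tested, 11 were called, each lower in male cultures, and all 14 differences were below 0. Cx3cr1, Trem2 and P2ry12 averaged under 1 FPKM in male cultures and passed the filter through their female level. The 15 neuron markers summed to 308 to 327 FPKM in male and 262 to 370 FPKM in female cultures. Of 13 tested, 5 were called higher in male cultures, among them Gad1 and Dlx1, and none higher in female ones. Differences of 9 lay above 0 and those of 4 below, among them Tubb3 (-0.062) and Map2 (-0.13). The glutamate transporter gene Slc17a7 was listed at 0 in all. OPC markers summed to 2018 to 2134 FPKM in male and 2430 to 2683 FPKM in female cultures, and 3 of 7 tested were called, all higher in female cultures. All 7 differences lay below 0. For 6 of the 7 every female culture lay above every male one, as for 6.77% of all tested genes. The largest difference was that of Gpr17, at 43.1 ± 3.41 FPKM in male and 143 ± 40.3 FPKM in female cultures (-1.66 ± 0.18, limma-trend adjusted p = 0.00126). Astrocyte markers summed to 221 to 242 FPKM in male and 221 to 248 FPKM in female cultures. By limma-trend 0 of 7 were called and 3 had an unadjusted p under 0.05, as did 2393 of all 11263 tested genes. Endothelial markers summed to at most 0.271 FPKM in male and 0.476 FPKM in female cultures, with Cldn5 and Tek listed at 0 in all. Fibroblast and mural cell markers summed to 1.40 to 2.79 FPKM in male and 0 to 2.67 FPKM in female cultures, with Col1a2, Col3a1 and Dcn listed at 0 in all. Female 1 held the female maximum, with Rgs5 at 1.92 FPKM. Acta2, below the filter, averaged 1.46 ± 0.788 FPKM in male and 0.252 ± 0.227 FPKM in female cultures. The part of these cell types in the results on immediate early genes was not tested, and in bulk RNA more expressing cells and more RNA per cell cannot be told apart.

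Egr1 and Egr2 had the largest log2 differences of the 8 immediate early genes of the set that passed the filter, while Egr3 was near 0 in both sexes. Egr1 (ENSRNOG00000019422), the EGR factor most often used as a readout of ERK activity, stood at 36.9, 98.2, 80.1 and 88.2 FPKM in male 1 to male 4, against 9.15, 17.4, 16.8 and 11.4 FPKM in female 1 to female 4. The groups did not overlap, and the lowest male culture was still 2.12 times the highest female one. Male 1 was well below the other 3 male cultures, which lay between 80.1 and 98.2 FPKM. The means were 75.8 ± 27.01 FPKM in male and 13.7 ± 4.04 FPKM in female cultures (SD, n = 4 each), and the log2 difference was 2.34 ± 0.33 (SE).

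Egr2 (ENSRNOG00000000640), known in Schwann cells as the master regulator of peripheral myelin and elsewhere as a growth factor response gene, was scarce in both sexes. It stood at 1.44, 3.79, 4.86 and 4.12 FPKM in male 1 to male 4, against 0.431, 0.357, 0.200 and 0.123 FPKM in female 1 to female 4. The lowest male culture, again male 1, was 3.34 times the highest female culture. The log2 difference was 1.77 ± 0.27, and with values this low it moved from 0.68 at a pseudocount of 5 to 3.23 at a pseudocount of 0.1. The third family member, Egr3 (ENSRNOG00000017828), had 0.200, 0.305, 0.519 and 0 FPKM in male 1 to male 4, against 0.277, 0, 0.406 and 0 FPKM in female 1 to female 4. Its groups overlapped at levels near the lowest the libraries resolve. Within the family Egr1 was the most abundant by far in both sexes.

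**Figure D1:**
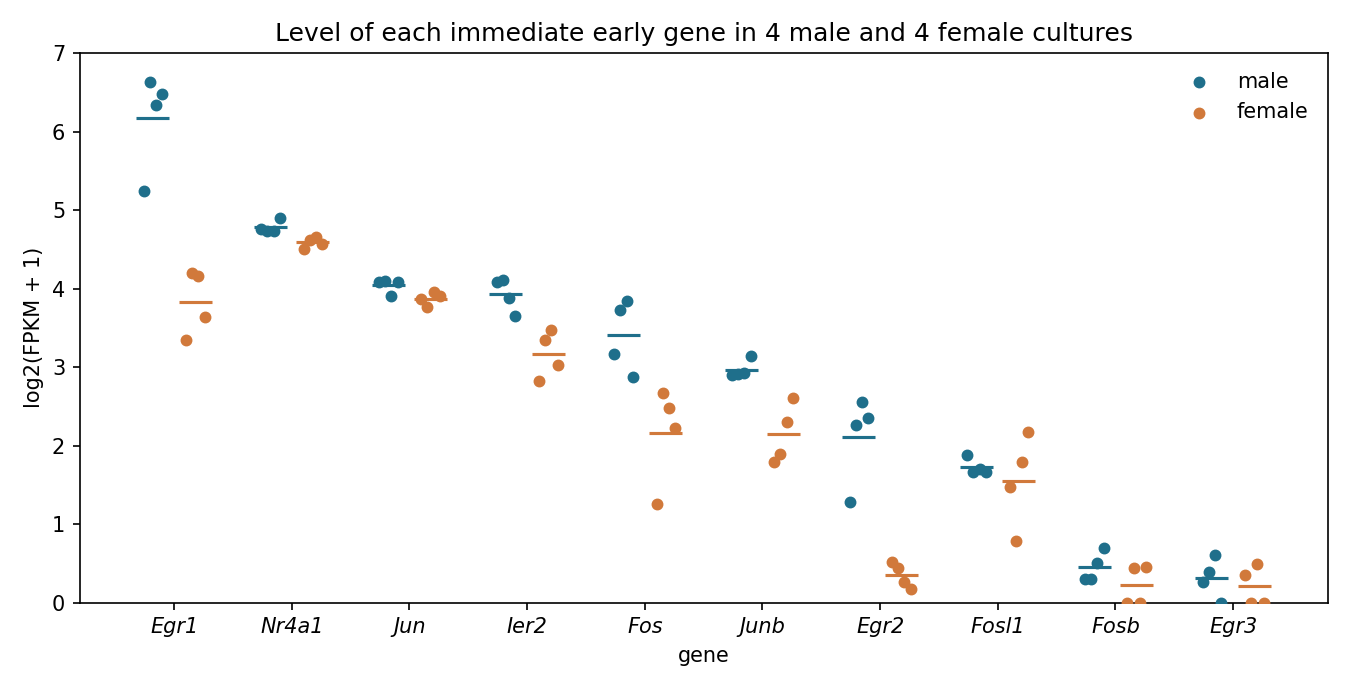
Level of the 10 immediate early genes as log2(FPKM + 1), with 4 male cultures on the left and 4 female cultures on the right of each gene. Points are cultures and lines are means, and Egr1, Egr2, Fos, Junb, Ier2 and Nr4a1 show male points that all lie above the female ones.

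Among the Fos genes, whose products need a JUN partner to bind DNA, Fos itself was the most abundant. Fos (ENSRNOG00000008015) stood at 8.01, 12.2, 13.4 and 6.31 FPKM in male 1 to male 4, against 1.39, 5.37, 4.58 and 3.69 FPKM in female 1 to female 4. The groups did not overlap, but male 4 was only 1.18 times female 2. The log2 difference was 1.24 ± 0.32. Fosl1 (ENSRNOG00000020552), which encodes FRA1 and often follows Fos in time, stood at 2.67, 2.18, 2.26 and 2.16 FPKM in male 1 to male 4, against 1.76, 0.730, 2.45 and 3.51 FPKM in female 1 to female 4. The groups overlapped fully, female 4 being the highest culture of all and female 2 the lowest, and the log2 difference was 0.17 ± 0.26. Without female 2 it was -0.081. Fosb (ENSRNOG00000046667), the gene of FOSB, had 0.232, 0.236, 0.424 and 0.625 FPKM in male 1 to male 4, against 0, 0.355, 0 and 0.366 FPKM in female 1 to female 4, with overlap.

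The products of Jun genes pair with FOS proteins or with each other. Junb (ENSRNOG00000042838), known as the more growth-restraining JUN protein, stood at 6.44, 6.49, 6.61 and 7.78 FPKM in male 1 to male 4, against 2.45, 2.70, 3.91 and 5.10 FPKM in female 1 to female 4. Every male culture lay above every female one, and the log2 difference was 0.82 ± 0.19. Jun (ENSRNOG00000026293), the main transactivating partner of FOS, stood at 15.9, 16.2, 13.9 and 15.9 FPKM in male 1 to male 4, against 13.6, 12.6, 14.6 and 13.9 FPKM in female 1 to female 4. Female 3 exceeded male 3, so the groups overlapped, and the log2 difference was 0.17 ± 0.094.

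Ier2 (ENSRNOG00000054344), a nuclear protein gene of the immediate early class, stood at 15.9, 16.3, 13.7 and 11.5 FPKM in male 1 to male 4, against 6.06, 9.18, 10.1 and 7.16 FPKM in female 1 to female 4. The groups did not overlap, and the log2 difference was 0.76 ± 0.16. Nr4a1 (ENSRNOG00000007607), which encodes the orphan nuclear receptor NUR77, stood at 26.0, 25.7, 25.7 and 28.8 FPKM in male 1 to male 4, against 21.7, 23.6, 24.2 and 22.7 FPKM in female 1 to female 4. Its groups did not overlap either, but the gap was narrow, the lowest male culture being 1.06 times the highest female one, and the log2 difference was 0.19 ± 0.080.

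In all, 6 of the 10 genes had every male culture above every female one, and none the reverse. Among all 11263 tested genes 7.26% had that order and 6.77% the reverse, and since the genes were chosen on this contrast nothing is read from the count. The 8 that passed the filter had a median log2 difference of 0.79, beside -0.0038 for all tested genes, and fell into a wide group of 5 (Egr1, Egr2, Fos, Junb, Ier2) from 0.76 to 2.34 and a narrow group of 3 (Jun, Fosl1, Nr4a1) from 0.17 to 0.19.

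The order of the levels differed between the sexes at the top. In male cultures Egr1 led, and each of its 4 values exceeded all those of the next, Nr4a1, which in turn exceeded all those of Jun. Jun and Ier2, Ier2 and Fos, and Fos and Junb were neighbours whose values overlapped, as did Egr2 and Fosl1, and Fosb and Egr3. In female cultures Nr4a1 led at 23.05 ± 1.09 FPKM (SD, n = 4), above all values of Egr1, which overlapped with Jun (13.7 ± 0.844 FPKM). Ier2 stood above Fos without overlap there, while Fos, Junb and Fosl1 overlapped in turn, and Egr2 overlapped with Fosb at the bottom, as Fosb did with Egr3. The genes also differed in how steady they were within a sex. The SD was 35.6% of the mean for Egr1 in male and 29.5% in female cultures, and 33.6% and 45.8% for Fos. For Nr4a1 it was 5.66% in male and 4.75% in female cultures, and for Jun 6.68% and 6.18%.

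Ratios between these genes within a library do not depend on how the libraries were scaled. Egr1 over Jun was 2.31, 6.08, 5.75 and 5.54 in male 1 to male 4, against 0.674, 1.38, 1.15 and 0.822 in female 1 to female 4. All male ratios exceeded all female ones, with male 1 again between the rest of the male cultures and the female ones. Junb over Jun lay between 0.402 and 0.489 among male cultures and between 0.180 and 0.367 among female ones, without overlap. Fos over Jun lay between 0.396 and 0.957 among male cultures and between 0.102 and 0.428 among female ones, and here the groups overlapped, female 2 lying above male 4. The 10 genes summed to 114 to 182 FPKM in male and 56.8 to 77.2 FPKM in female cultures, and Egr1 made up 32.4% to 54.1% of that sum in male cultures, against 16.1% to 24.05% in female ones.

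**Figure D2:**
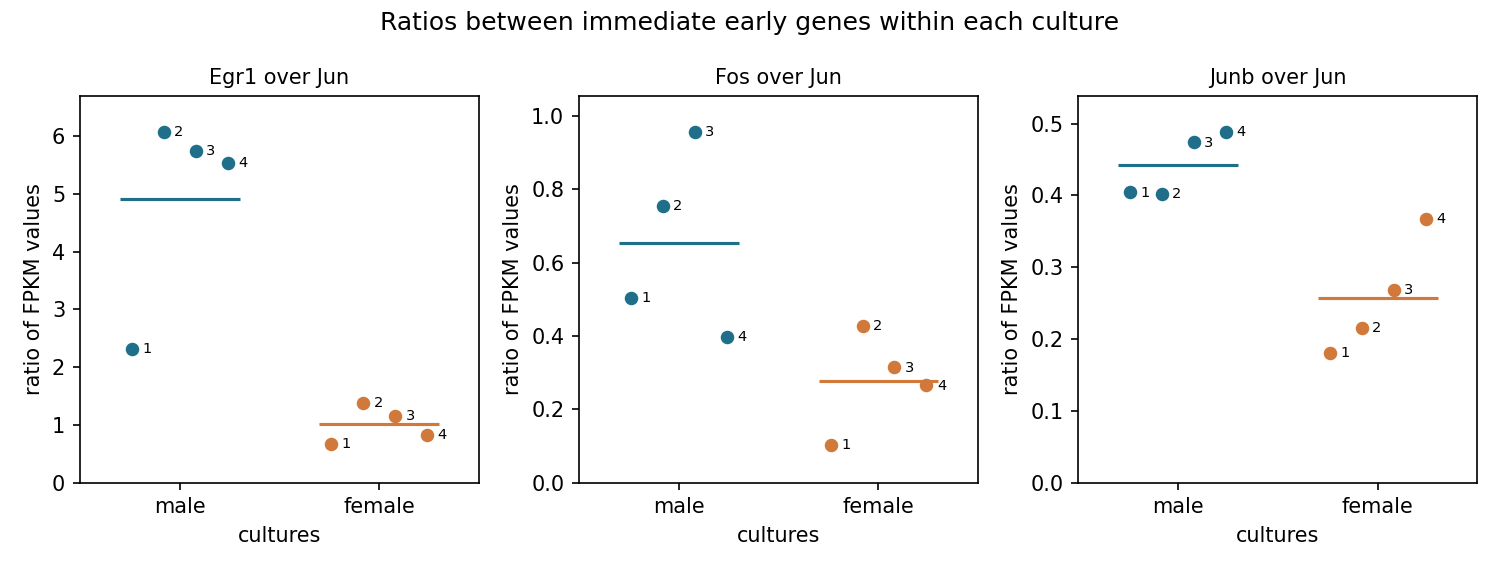
Ratio of the FPKM values of Egr1, Fos and Junb to that of Jun within each culture, male on the left and female on the right, with culture numbers beside the points and lines at the means. Egr1 over Jun spans 2.31 to 6.08 in male cultures, against 0.674 to 1.38 in female ones, and the Fos ratios overlap.

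Single cultures did not rank alike across the genes. Among the 8 genes that passed the filter, male 1 was the lowest male culture for 3 (Egr1, Egr2 and Junb) and the highest for Fosl1. Male 4 was the lowest for Fos, Fosl1 and Ier2 and the highest for Junb and Nr4a1. Female 1, the shallowest library, was the lowest female culture for 5 (Egr1, Fos, Junb, Ier2 and Nr4a1) and the highest for Egr2. Over the 8 cultures the nearest pair was Jun and Nr4a1, with a root mean square difference of 0.087 between their centred log2(FPKM + 1) values, and Egr1 was nearest to Egr2 (0.44).

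Among all tested genes the pattern nearest to that of Egr1 over the 8 libraries, by the same measure, was also Egr2. It was followed by the serpin gene Serpinb7 at 0.44, at 7.55, 22.1, 24.7 and 20.9 FPKM in male 1 to male 4, against 2.02, 5.57, 6.84 and 6.11 FPKM in female 1 to female 4. Like Egr1 it was lowest among the male cultures in male 1 and lowest of all in female 1. Ddx3 (0.47), listed at 0 in every female culture, and the unnamed genes LOC100361008 (0.51) and AABR07027407.1 (0.52) came next.

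Nearest to Fos were the unnamed gene AABR07044273.1 (0.21), the GABA receptor subunit gene Gabra5 (0.27), AABR07027407.1 (0.28), Lrrc75a (0.31) and the actin-binding protein gene Tagln (0.35). Gabra5 stood at 8.87, 9.08, 9.41 and 7.78 FPKM in male 1 to male 4, against 1.95, 5.10, 3.81 and 4.06 FPKM in female 1 to female 4, and shared with Fos its lowest value in female 1 and its highest in male 3. Jun lay nearest to L3mbtl2 (0.035), the RNA-binding protein gene Hnrnpd (0.040), the chaperone organiser gene Stip1 (0.043), the glycolytic enzyme gene Pfkm (0.049) and the RNA polymerase II subunit gene Polr2c (0.053). These are genes whose values, like those of Jun, moved little. The groups differ in all these patterns, so nearness rests largely on the step between the sexes.

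**Figure D3:**
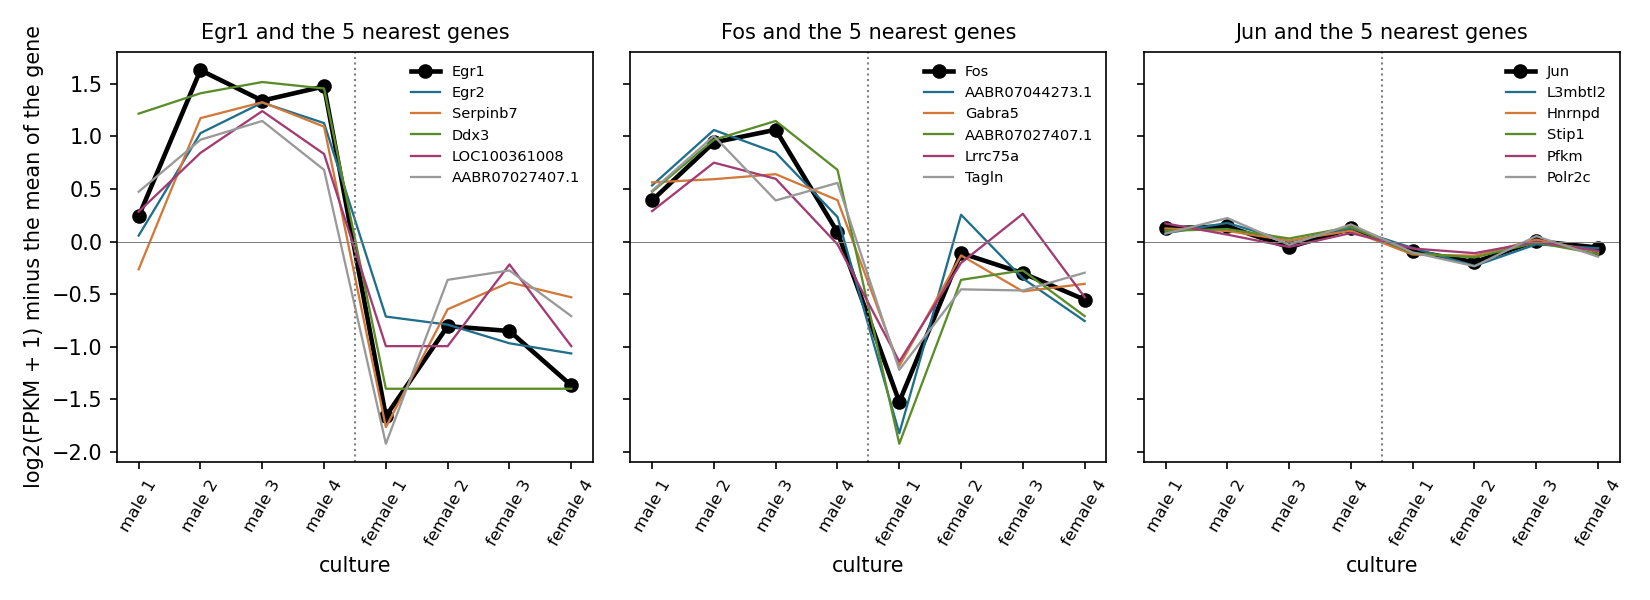
Centred log2(FPKM + 1) over the 8 cultures for Egr1, Fos and Jun (black) and the 5 tested genes nearest to each, with male cultures left and female cultures right of the dotted line. Egr1 and Fos step down at the line and reach their lowest value in female 1, while Jun and its nearest genes stay close to 0.

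Genes of the same pathway that are not members were tested in the fit over all genes, with Benjamini-Hochberg adjustment over all 11263. Of these genes 6.04% were called at an adjusted p under 0.05, 3.14% as higher in male and 2.89% as higher in female cultures. Some of the listed genes stood in lists examined earlier in these data, so the counts are no independent support for the description above.

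Of 36 other immediate early genes 35 were in the table and 23 were tested. In male cultures 3 were higher and 1 was lower, and the median log2 difference was 0.21. The polo-like kinase gene Plk2 was highest in expression among the 3, at 19.3, 25.5, 26.4 and 26.5 FPKM in male 1 to male 4, against 14.2, 15.3, 13.4 and 16.0 FPKM in female 1 to female 4 (0.69 ± 0.12, limma-trend adjusted p = 0.00705). Its groups did not overlap, and male 1 was the lowest male culture, as for Egr1. The orphan receptor gene Nr4a3, a close relative of Nr4a1, averaged 1.76 ± 0.412 FPKM in male and 0.571 ± 0.171 FPKM in female cultures (0.81 ± 0.21, limma-trend adjusted p = 0.0412). The synaptic immediate early gene Arc averaged 2.39 ± 0.433 FPKM in male and 0.900 ± 0.444 FPKM in female cultures (0.86 ± 0.22, limma-trend adjusted p = 0.0416). Nr4a3, Arc and the uncalled Fosl2 averaged under 1 FPKM in female cultures and passed the filter through their male level. Myc, a transcription factor gene of cell growth, was lower in male cultures, at 54.4 ± 7.19 FPKM against 75.3 ± 6.80 FPKM in female cultures (-0.47 ± 0.099, limma-trend adjusted p = 0.0209). The most abundant uncalled genes were the GTPase gene Rhob, with a difference of 0.25 ± 0.072 (limma-trend adjusted p = 0.0704), and Jund, with 0.14 ± 0.090 (limma-trend adjusted p = 0.414). Nr4a3 lost its call without any single library, without male 1 and female 3 together, with a pseudocount of 0.1, with quantile normalization and with relative depth in the model (limma-trend adjusted p of 0.0338 to 0.134 over all alternatives). Arc lost it without any single library but female 3, with a pseudocount of 0.1, with no filter and with relative depth in the model (0.0304 to 0.126), and Myc lost it without male 2, male 3, male 4, female 1 or female 4 (0.00606 to 0.0676). The count of genes higher in male cultures was 1 without male 1, male 2, male 3, male 4, female 2 or female 4, and 2 without female 1 or female 3.

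The genes upstream of the immediate early genes gave no call by limma-trend in either direction, with 5 of 32 at an unadjusted p under 0.05. Among all 11263 tested genes 2393 reached that value. All 32 of the RAS, RAF, MEK, ERK, stress kinase, RSK, SRF, ELK and CREB genes in the table were tested, and 17 lay above 0 and 15 below, with a median log2 difference of 0.0090. Every male culture lay above every female one for 2 of the 32 and for 7.26% of all tested genes, and none of the 32 had the reverse order. The 2 were Hras (0.33 ± 0.090, limma-trend adjusted p = 0.0574) and Mapk14 (0.21 ± 0.075, limma-trend adjusted p = 0.136), named after their values were seen. The RAS gene Nras averaged 71.8 ± 11.3 FPKM in male and 73.1 ± 3.54 FPKM in female cultures, with a difference of -0.038 ± 0.11 (limma-trend adjusted p = 0.884). These are mRNA levels, and kinase activity was not measured. Leaving out male 2 gave 1 call higher in male cultures, and leaving out female 2 gave 1 higher in female cultures.

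Of 14 feedback genes of the pathway 13 were tested, 5 were higher in male cultures and none in female ones, and the median log2 difference was 0.35. Nab2, which encodes a corepressor that binds EGR proteins and is itself induced by them in other cells, stood at 4.42, 5.60, 6.27 and 5.77 FPKM in male 1 to male 4, against 1.55, 2.78, 3.12 and 2.35 FPKM in female 1 to female 4 (0.93 ± 0.18, limma-trend adjusted p = 0.0129). The sexes did not overlap, and male 1 and female 1 were again the lowest of their groups. Its relative Nab1 averaged 10.8 ± 1.23 FPKM in male and 9.50 ± 0.651 FPKM in female cultures and was not called (0.17 ± 0.11, limma-trend adjusted p = 0.449), a gene named after its value was seen. Sprouty proteins restrain receptor signals to RAS. Spry2 stood at 102, 112, 116 and 112 FPKM in male 1 to male 4, against 71.5, 72.8, 84.0 and 71.2 FPKM in female 1 to female 4 (0.56 ± 0.074, limma-trend adjusted p = 0.00231). Spry1 averaged 56.6 ± 5.97 FPKM in male and 39.7 ± 5.46 FPKM in female cultures (0.50 ± 0.11, limma-trend adjusted p = 0.0221).

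Dusp6, the gene of a phosphatase that inactivates ERK, stood at 36.6, 48.5, 49.7 and 47.2 FPKM in male 1 to male 4, against 34.0, 31.5, 34.6 and 32.3 FPKM in female 1 to female 4 (0.44 ± 0.10, limma-trend adjusted p = 0.0265). Here male 1 lay nearer to the female cultures than to the other male ones. The fifth called gene, Spry4, falls outside the naming rule and averaged 64.4 ± 8.04 FPKM in male and 49.97 ± 2.47 FPKM in female cultures (0.35 ± 0.092, limma-trend adjusted p = 0.0470). The most abundant uncalled genes, Spred1 (-0.084 ± 0.16, limma-trend adjusted p = 0.819) and Spred2 (-0.13 ± 0.10, limma-trend adjusted p = 0.516), also encode inhibitors of the RAS route. Spry2 kept its call without each library in turn. Nab2 lost it without male 3 (limma-trend adjusted p = 0.0512, range 0.0103 to 0.0512 over the alternatives) and Spry1 without male 3, male 4, female 1 or female 2 (0.0100 to 0.0737). Dusp6 lost it without male 2, male 3, male 4, female 1, female 2 or female 4 (0.00321 to 0.0886), and Spry4 without any single library but male 1, with no filter, with quantile normalization and with relative depth in the model (0.0139 to 0.136). The list's count was 3 without male 2 or female 4, 1 without male 3 and 2 without male 4, female 1 or female 2.

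**Figure D4:**
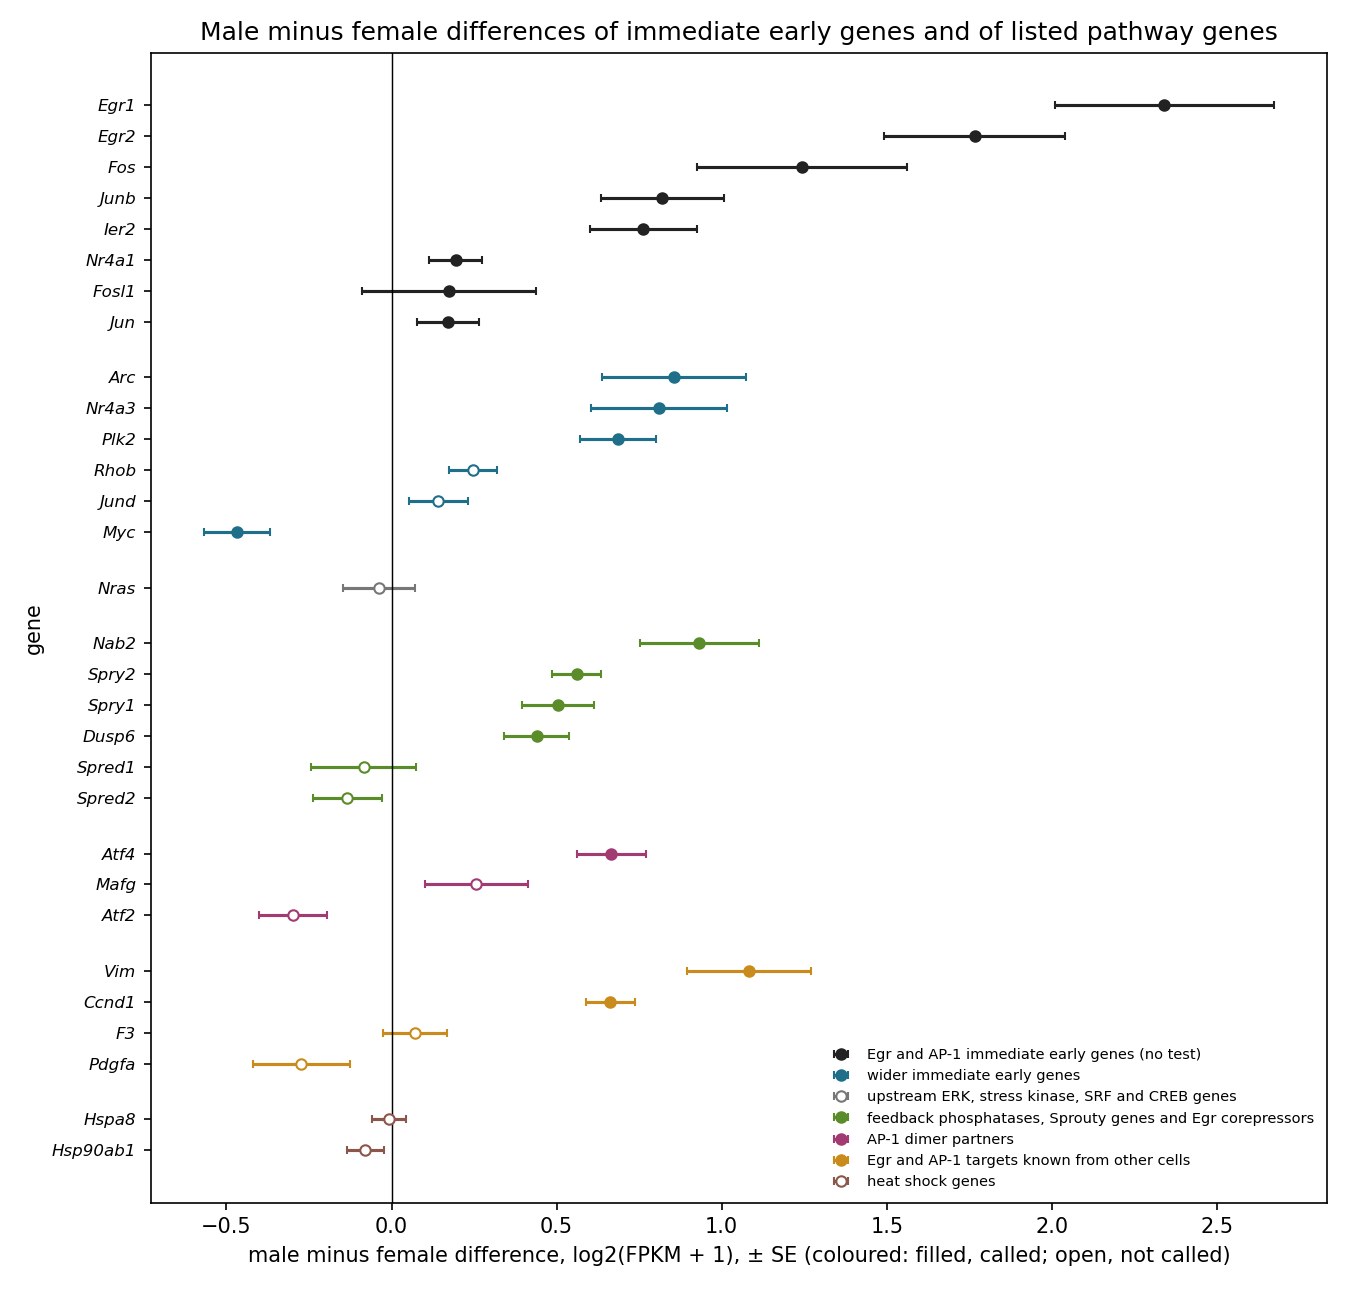
Male minus female difference on the log2(FPKM + 1) scale, with its SE. Black points are the 8 immediate early genes that passed the filter (no test). The others are reported genes of 6 pathway lists that the naming rule takes. Filled coloured points were called by limma-trend and open ones were not, and the range runs from Egr1 at 2.34 to Myc at -0.47.

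Of 12 listed partners that can join AP-1 dimers 7 were tested, 1 was higher in male cultures and none in female ones, and the median log2 difference was -0.020. The called gene was Atf4, the translation-controlled stress factor, at 84.5, 68.5, 81.2 and 66.5 FPKM in male 1 to male 4, against 45.4, 42.8, 55.4 and 44.5 FPKM in female 1 to female 4 (0.66 ± 0.10, limma-trend adjusted p = 0.00552). Its male and female values did not overlap. Atf2 (-0.30 ± 0.10, limma-trend adjusted p = 0.119) and Mafg (0.26 ± 0.16, limma-trend adjusted p = 0.386) were not called, and Batf, Batf2 and Nrl were listed at 0 in every library.

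Of 20 genes known from other cells as targets of Egr or AP-1 factors, 10 were tested, 2 were higher in male cultures and none in female ones, and the median log2 difference was 0.20. Vim, the gene of the intermediate filament protein vimentin, stood at 774, 976, 1103 and 1009 FPKM in male 1 to male 4, against 378, 500, 631 and 349 FPKM in female 1 to female 4 (1.08 ± 0.19, limma-trend adjusted p = 0.0133). The groups did not overlap, and once relative depth entered the model the difference was 1.02 and the gene was not called (limma-trend adjusted p = 0.0641, range 0.00230 to 0.0641 over the alternatives). The cyclin D1 gene Ccnd1 stood at 456, 550, 550 and 518 FPKM in male 1 to male 4, against 305, 346, 335 and 320 FPKM in female 1 to female 4 (0.66 ± 0.074, limma-trend adjusted p = 0.00087). Male 1 was the lowest male culture for both. The tissue factor gene F3 (0.071 ± 0.097, limma-trend adjusted p = 0.734) and the PDGF ligand gene Pdgfa (-0.27 ± 0.15, limma-trend adjusted p = 0.319) were not called, and Mmp3, Mmp13 and Il6 were listed at 0 in every library.

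Heat shock genes, which tissue handling can raise together with immediate early genes, gave 0 calls among 9 tested by limma-trend. At an unadjusted p under 0.05 there were 3, beside 2393 of all 11263 tested genes. The median log2 difference was 0.14, with 7 of 9 above 0. The most abundant were Hsp90ab1, at 1044 ± 57.4 FPKM in male and 1102 ± 21.7 FPKM in female cultures (-0.080 ± 0.056, limma-trend adjusted p = 0.463), and Hspa8, at 754 ± 22.6 FPKM in male and 757 ± 17.9 FPKM in female cultures (-0.0075 ± 0.052, limma-trend adjusted p = 0.956). Every male culture lay above every female one for 2 of the 9 and for 7.26% of all tested genes. The 2 were Hsph1 (0.25 ± 0.079, limma-trend adjusted p = 0.0933) and Hspd1 (0.19 ± 0.059, limma-trend adjusted p = 0.0892), named after their values were seen. The strongly inducible gene Hspa1a was listed at 0 in every library, and Hspa1b was not in the table. The part of handling was not tested.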

How the data were processed

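RNA was measured in 8 libraries made with a strand-specific Agilent kit, per the labels' protocols. The authors deposited FPKM values, 1 per gene and library, per the file headers. The submitters' processing notes name Trimmomatic and FastQC. Aligner, genome build, annotation and use of strand: not given in the sources used here. Since FPKM is relative to library size, higher abundant genes make all others lower. All 8 value columns were matched to samples by title. The 11263 genes averaging 1 FPKM or more were fitted as log2(FPKM + 1) with limma 3.58.1 in R 4.3.3 (trend, robust), Benjamini-Hochberg threshold 0.05; the fit was tested on simulated data. A symbol held by several rows was read from the row with the highest mean. Depth came from the modal ratio of low values to male 1. The members and lists were chosen with earlier results of these data known. Named genes are all members, the 4 largest called differences per list and direction, the 2 most abundant uncalled genes per list, and the 5 nearest patterns of Egr1, Fos and Jun; a gene the rule takes is not reported here. Motifs were searched in RefSeq promoter windows (GRCr8), matched by symbol. Alternatives were other pseudocounts (0.1, 5), filters (none, 5 FPKM), quantile normalization, a replicate block, depth as a covariate and each library left out. Leaving out male 1 and female 3 together was added after seeing the data.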

Additional observations from a re-analysis of the deposited data

Results flagged for a closer look

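Among 66 groups of 4 cultures (members and named pathway genes in each sex), 7 held a culture set far from the others, and chance flags about 1 group in 20. Jun was low in male 3 (13.9 FPKM, against 15.9 to 16.2 in the other male cultures), Junb was high in male 4 (7.78 FPKM, against 6.44 to 6.61) and Nr4a1 was high in male 4 (28.8 FPKM, against 25.7 to 26.0). Male 1 was low for Plk2 (19.3 FPKM, against 25.5 to 26.5), for Nras (54.9 FPKM, against 76.1 to 79.5) and for Spred1 (30.4 FPKM, against 43.8 to 46.3). Spry2 was high in female 3 (84.0 FPKM, against 71.2 to 72.8 in the other female cultures).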

How the results depend on the processing

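Egr1, Egr2, Fos, Jun, Junb, Ier2 and Nr4a1 stayed higher in male cultures under every alternative that gave them a value, and Egr1 ranged from 2.06 to 2.76. Apart from Jun, these genes had every male value above every female one. Leaving out libraries or changing the pseudocount therefore could not reverse their sign. The median of the members was 0.52 with a pseudocount of 5. With each library left out in turn, 147 to 454 genes were called higher in male and 149 to 354 in female cultures; the other immediate early genes gave 1 to 2 and 0 to 1, the upstream genes 0 to 1 and 0 to 1, and the feedback genes 1 to 5 higher in male cultures. With the replicate block the counts over all genes were 208 and 189, those of the other immediate early genes 1 and of the feedback genes 3 (higher in male cultures). Under that block 4 genes lost their calls: Nr4a3 (limma-trend adjusted p = 0.114), Arc (0.0866), Dusp6 (0.0663) and Spry4 (0.104). The other immediate early genes also gave 1 with a pseudocount of 0.1, a filter at 5 FPKM or relative depth as a covariate. With that filter Nr4a3 and Arc were no longer tested. The upstream genes gave 1 with the filter at 5 FPKM, and the target genes 1 with relative depth. The cause of the other changes was not tested. Same-numbered cultures had correlations of -0.085, 0.077, -0.064 and 0.036 between their deviations, so the numbers are not treated as pairs. Without male 1 and female 3 the feedback genes gave 6. Depth limits the genes under 1 FPKM, such as Egr3 and Fosb.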
